A study of Mus musculus with 4 samples.

Results

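Solute carriers (SLC) are membrane proteins that move sugars, amino acids, organic ions, monocarboxylates and inorganic ions across a lipid bilayer. The members described here are the genes whose symbol starts with Slc and a digit in any of the 4 deposited tables of mouse liver mRNA, without the families Slc10, Slc25, Slc30, Slc39 and Slc51 and without Slc7a2, Slc27a5 and Slc40a1. The rule found 62 genes of 3113 listed in at least 1 table. In the GENCODE M21 annotation 288 protein-coding genes met the same rule, so 21.5% of them were listed, against 13.6% of all 21922 protein-coding genes. The symbol does not guarantee a carrier of the plasma membrane. By family or single gene, 13 of the 62 were classed here as carriers of internal membranes such as endoplasmic reticulum, Golgi or lysosome. Slc9a3r1 and Slc9a3r2 encode the scaffold proteins NHERF1 and NHERF2 and carry no solute.

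The study compared endotoxic shock in wild-type mice (WT) and in mice without cyclophilin D (CypD-/-), the mitochondrial matrix protein encoded by Ppif that regulates the permeability transition. All mice were male C57BL/6 animals of 16 to 20 weeks. Each genotype received PBS or an intraperitoneal dose of 40 mg per kg lipopolysaccharide (LPS) of E. coli, and livers were taken after 24 h. The 4 groups were therefore WT, WT + LPS, CypD-/- and CypD-/- + LPS, and the CypD-/- mice lacked exons 2, 3 and 4 of Ppif. Equal amounts of RNA from 3 mice were pooled into 1 library per group, although the legends of the sequencing figures name 5, so no spread between animals can be given and no comparison has a replicate check.

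Every value below is a fold difference between a pair of libraries as the authors' deposited tables give it, and a gene is listed only where it passed 1.5-fold and a false discovery rate of 0.05 in a test on the reads of those libraries, Kal's Z-test. That test compares libraries, not conditions. A member that is not listed has no value and cannot be called unchanged, and where a sentence gives 1 genotype the other had no listed value. Depth and levels are unknown, so genes cannot be ranked by abundance, and in whole liver fewer cells of a type and less RNA per cell cannot be told apart.

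Hepatocytes exchange nutrients with blood through carriers of their sinusoidal membrane and export solutes into bile through their canalicular membrane. Glucose enters and leaves by facilitated diffusion, amino acid carriers are driven by sodium or work as exchangers, monocarboxylate carriers move lactate together with protons, and organic ion carriers take up drugs, urate and metabolites. Many of these carriers are typical of differentiated hepatocytes, and values of hepatocyte markers are therefore given with them.

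The libraries differed in more than the labels name. Without LPS the Ppif value of CypD-/- mice was 2.72-fold below that of WT mice. Ppif was also 2.20-fold lower in WT + LPS than in WT mice, and it was not listed between the LPS-treated groups. Of 4 Y-linked genes, 3 were 13.6- to 24.9-fold lower in WT + LPS than in WT mice, 2 were 14.3- to 29.2-fold higher in CypD-/- + LPS than in WT + LPS mice and 1 was 1.98-fold higher in CypD-/- than in WT mice, while according to the methods all animals were male. All 7 genes of a list of male-predominant liver genes were 5.88- to 26.0-fold lower in WT + LPS than in WT mice and 5 were 1.64- to 6.13-fold lower in CypD-/- + LPS than in CypD-/- mice. Without LPS, 5 of these 7 genes were 1.83- to 3.15-fold higher in CypD-/- than in WT mice. Of 10 female-predominant genes, 9 were 8.69- to 68.1-fold lower in CypD-/- than in WT mice, 8 were 1.57- to 11.9-fold lower in WT + LPS than in WT mice, and none was listed between the CypD-/- groups. Of 6 hepatocyte markers, 4 were 2.26- to 5.30-fold lower after LPS in WT mice and 3 were 1.61- to 2.51-fold lower after LPS in CypD-/- mice. Of 6 neutrophil markers 3 were higher after LPS in each genotype, at least 34.4-fold in WT mice and at least 52.7-fold in CypD-/- mice, and no stellate, biliary or lymphocyte marker was listed. Of 7 macrophage and monocyte markers, Adgre1, Clec4f and Cd5l were 3.58- to 8.74-fold lower and none was higher after LPS in WT mice. In CypD-/- mice Marco, Itgam and Ly6c2 were 4.84- to 16.6-fold higher and Clec4f was 2.50-fold lower after LPS. Without LPS, Marco was 7.44-fold and Cd5l 1.72-fold lower in CypD-/- than in WT mice. Cd5l was 4.71-fold higher in CypD-/- + LPS than in WT + LPS mice. Of 5 endothelial markers, Lyve1 was 11.7-fold and Cdh5 2.86-fold higher and Kdr 10.3-fold lower after LPS in WT mice, and Lyve1 was 7.83-fold higher in CypD-/- mice. Of 3 erythroid markers, Alas2 was 9.74-fold lower in WT and 1.77-fold lower in CypD-/- mice after LPS. The part of these differences in the carrier values was not tested, and no fit without a library is possible with 1 library per group.

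Slc22a26, Slc22a27, Slc22a28 and Slc22a30, which encode proteins of the organic anion transporter family, are neighbours on the minus strand of chromosome 19 and include the members with the largest differences between genotypes. Their promoters are shown as a description of these neighbours. Reads may be shared between close copies through their transcripts, which are compared below. Each RefSeq window (GRCm38.p6) runs from 250 bases before to 50 bases after an annotated transcript start, 5′ to 3′ on the strand of the gene. Capitals mark a STAT motif (TTCNNNGAA, searched on both strands).
Slc22a26 (chr19:7802618-7802917, minus strand): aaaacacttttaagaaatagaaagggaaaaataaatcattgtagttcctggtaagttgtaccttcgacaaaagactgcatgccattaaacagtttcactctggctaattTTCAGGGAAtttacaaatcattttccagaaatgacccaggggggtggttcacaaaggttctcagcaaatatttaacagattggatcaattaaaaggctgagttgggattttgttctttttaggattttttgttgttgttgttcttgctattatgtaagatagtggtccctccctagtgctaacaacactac
Slc22a27 (chr19:7965978-7966277, minus strand): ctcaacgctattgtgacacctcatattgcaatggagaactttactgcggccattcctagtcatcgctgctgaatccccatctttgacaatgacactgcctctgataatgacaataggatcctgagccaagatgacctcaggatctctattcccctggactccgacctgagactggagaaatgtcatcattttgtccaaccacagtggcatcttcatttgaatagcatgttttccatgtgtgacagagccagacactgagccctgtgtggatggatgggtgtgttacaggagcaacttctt
Slc22a28 (chr19:8131933-8132232, minus strand): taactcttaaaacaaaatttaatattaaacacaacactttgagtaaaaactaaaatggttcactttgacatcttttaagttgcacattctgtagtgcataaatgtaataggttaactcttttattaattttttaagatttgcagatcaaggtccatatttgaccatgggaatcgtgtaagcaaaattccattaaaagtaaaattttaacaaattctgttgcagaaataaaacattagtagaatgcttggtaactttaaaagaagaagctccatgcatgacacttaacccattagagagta
Slc22a30 (chr19:8405056-8405355, minus strand): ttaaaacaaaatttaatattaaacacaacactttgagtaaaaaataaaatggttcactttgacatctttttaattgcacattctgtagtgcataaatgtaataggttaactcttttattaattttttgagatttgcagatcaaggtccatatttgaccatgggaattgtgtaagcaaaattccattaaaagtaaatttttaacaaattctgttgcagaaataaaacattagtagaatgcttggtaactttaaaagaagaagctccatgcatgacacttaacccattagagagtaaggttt
The windows of Slc22a28 and Slc22a30 were 98.0% identical over 294 aligned bases, and those of Slc22a26 and Slc22a27 aligned over only 67 bases. The longest transcripts of Slc22a28 and Slc22a30 were 98.9% identical, those of Slc22a27 and Slc22a30 92.1% and those of Slc22a27 and Slc22a28 91.1%. Of all 75-base windows, the read length, 44.8% of Slc22a28, 29.6% of Slc22a30 and 16.8% of Slc22a27 occurred without a mismatch in a transcript of another gene, against 2.99% of Slc22a26. The transcript of Slc22a26 was 74.4% to 75.1% identical to the other 3. Up to 10 match positions and a similarity of 80% were accepted in the mapping, so the values of Slc22a27, Slc22a28 and Slc22a30 are uncertain, and those of Slc22a26 less so.

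A RefSeq promoter was matched for 46 of the 62 members, in 70 windows. The STAT motif was found in 5 of the 46 (10.9%, against 9.55% of 27025 genes with a promoter): Slc7a1, Slc46a3, Slc17a3, Slc35b1 and Slc22a26. A 10-base NF-kB motif was found in 6 (13.0%, against 9.55%), namely Slc19a2, Slc29a1, Slc35b2, Slc37a4, Slc6a12 and Slc6a13. The HNF4 motif CAAAGTCCA was found in Slc3a1 (2.17%, against 0.555%), and the HNF1 motif and the ATF4 element TGATGNAA were found in 0 of 46, against 0.0074% and 4.51% of all genes. All motifs were searched on both strands, were chosen after the values of the members had been seen, and gave no overlapping matches in member promoters. The windows of the STAT matches with the largest rise and the largest fall in WT mice, Slc7a1 and Slc17a3, and of the HNF4 match are shown here, with the motif in capitals; the window of Slc7a1 belongs to an inner transcript start, and its outer window held no match.
Slc7a1 (chr5:148392766-148393065, minus strand): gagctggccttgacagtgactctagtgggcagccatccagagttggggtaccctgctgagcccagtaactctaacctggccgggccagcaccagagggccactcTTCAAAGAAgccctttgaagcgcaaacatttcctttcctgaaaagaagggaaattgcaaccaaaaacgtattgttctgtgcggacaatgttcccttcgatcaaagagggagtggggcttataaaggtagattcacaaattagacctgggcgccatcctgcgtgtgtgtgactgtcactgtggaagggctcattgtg
Slc17a3 (chr13:23839184-23839483, plus strand): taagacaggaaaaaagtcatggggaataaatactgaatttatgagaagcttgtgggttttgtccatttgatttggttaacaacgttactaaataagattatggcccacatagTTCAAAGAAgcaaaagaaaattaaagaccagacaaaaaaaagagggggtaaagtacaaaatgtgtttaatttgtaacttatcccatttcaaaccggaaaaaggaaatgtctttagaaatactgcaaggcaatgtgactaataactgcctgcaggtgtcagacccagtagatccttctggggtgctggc
Slc3a1 (chr17:85028097-85028396, plus strand): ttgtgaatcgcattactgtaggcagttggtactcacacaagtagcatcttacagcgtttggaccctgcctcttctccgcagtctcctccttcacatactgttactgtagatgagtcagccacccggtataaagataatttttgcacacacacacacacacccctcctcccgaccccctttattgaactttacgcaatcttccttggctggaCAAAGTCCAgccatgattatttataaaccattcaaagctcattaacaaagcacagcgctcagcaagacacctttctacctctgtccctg
These genes moved differently after LPS in WT mice: Slc7a1 was 26.1-fold higher, Slc17a3 10.9-fold lower and Slc3a1 4.50-fold lower. A match of letters is a description and not a binding site.

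After LPS in WT mice 41 of the 62 members were lower (66.1%) and 16 were higher (25.8%), while 62.1% of all 3113 listed genes were lower and 29.2% higher. In CypD-/- mice 31 were lower (50%) and 10 higher (16.1%), against 32.1% and 14.4% of all listed genes. The percentages for all genes are of genes listed in any table, since the genes tested are not given. The falls of members had a median of 4.52-fold in WT mice, against 3.79-fold for all genes that fell, and 2.71-fold in CypD-/- mice, against 2.39-fold. The rises had a median of 4.52-fold in WT mice, against 3.67-fold, and 3.42-fold in CypD-/- mice, against 3.70-fold. In WT mice the balance of falls and rises among members was thus near that of all listed genes, with 71.9% of listed members and 68.0% of all listed genes lower. In CypD-/- mice more of the members were listed at all, 66.1% against 46.5% of all genes.

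**Figure D1:**
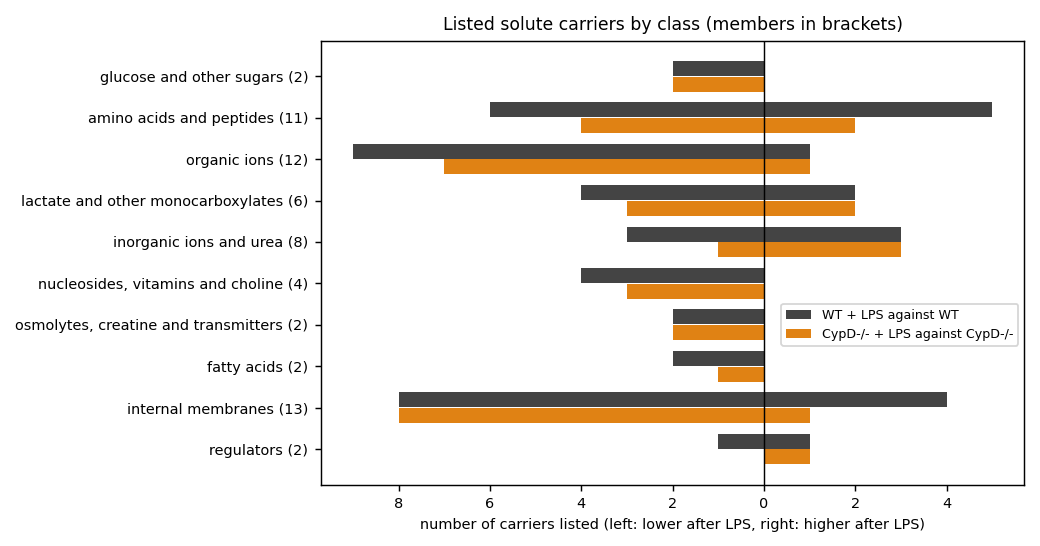
Number of members listed after LPS by substrate class, with bars to the left for lower and to the right for higher carriers, in WT mice (dark) and CypD-/- mice (orange). Of 12 organic ion carriers 9 were lower and 1 higher in WT mice, whereas the inorganic ion class was split, with 3 lower and 3 higher. Of all listed genes, 62.1% were lower and 29.2% higher in WT mice.

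Both listed genes of the glucose carrier family were lower after LPS in both genotypes. Of all listed genes, 62.1% were lower in WT and 32.1% in CypD-/- mice. Slc2a2 (chr3:28697903-28731359 of GRCm38, plus strand), which encodes GLUT2, the main glucose carrier of hepatocytes, was 12.9-fold lower after LPS in WT mice and 4.77-fold lower in CypD-/- mice, and 3.47-fold higher in CypD-/- + LPS than in WT + LPS mice. With untreated WT mice set to 100%, the listed folds place Slc2a2 at 7.77% in WT + LPS, 129% in CypD-/- and 27.0% in CypD-/- + LPS mice. Both LPS libraries were thus below both untreated ones, and the WT + LPS library was the lowest. Slc2a9, a member of the same family that carries urate, was 9.12-fold lower in WT and 3.22-fold lower in CypD-/- mice. These were the only listed genes of 24 annotated in the class of sugar carriers.

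Genes of glucose-6-phosphate handling did not move as 1 group. G6pc, the catalytic subunit of glucose-6-phosphatase, was 1.63-fold higher after LPS in CypD-/- mice, 1.63-fold lower without LPS in CypD-/- than in WT mice, and not listed after LPS in WT mice. Slc37a4, which brings glucose-6-phosphate to that enzyme in the endoplasmic reticulum, was 4.23-fold lower in WT and 3.09-fold lower in CypD-/- mice after LPS. Its levels relative to WT were 23.6% in WT + LPS, 144% in CypD-/- and 46.5% in CypD-/- + LPS mice.

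Amino acid carriers showed the largest rise of all members together with several falls. Of 11 listed genes, 6 were lower and 5 higher after LPS in WT mice, and 4 were lower and 2 higher in CypD-/- mice. Of all listed genes, 62.1% were lower and 29.2% higher in WT mice, and 32.1% lower and 14.4% higher in CypD-/- mice. Slc7a6 (chr8:106168857-106198706 of GRCm38, plus strand), the light chain of a heteromeric exchanger of cationic for neutral amino acids, was 56.8-fold higher in WT and 41.1-fold higher in CypD-/- mice. Slc7a1 (chr5:148327410-148399904 of GRCm38, minus strand), the cationic amino acid carrier CAT1 that brings arginine into cells, was 26.1-fold higher in WT mice and had no listed value in CypD-/- mice. Slc3a2, the heavy chain that partners Slc7a6 at the cell surface, was 3.13-fold higher in WT mice and 2.02-fold lower in CypD-/- + LPS than in WT + LPS mice. Of its 75-base windows, 3.47% occurred in another gene.

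The sodium-coupled neutral amino acid carriers of the Slc38 family went in both directions. Slc38a2 (chr15:96687392-96699730 of GRCm38, minus strand), which encodes SNAT2, a carrier known to be induced when amino acids are scarce, was the only member listed in all 4 tables. It was 4.08-fold higher after LPS in WT mice, 2.65-fold higher in CypD-/- mice, 1.81-fold lower in untreated CypD-/- than in WT mice and 2.79-fold lower in CypD-/- + LPS than in WT + LPS mice. With WT set to 100%, its levels were 408% in WT + LPS, 55.3% in CypD-/- and 146% in CypD-/- + LPS mice, so the LPS-treated CypD-/- library was above untreated WT but below WT + LPS. Slc38a3, the glutamine carrier SNAT3, was 4.56-fold lower in WT and 2.86-fold lower in CypD-/- mice, with levels of 21.9% in WT + LPS, 102% in CypD-/- and 35.7% in CypD-/- + LPS mice. Slc38a4, a neutral amino acid carrier abundant in liver, was 1.70-fold lower in WT and 1.66-fold lower in CypD-/- mice, folds close to each other.

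Other amino acid carriers fell. Slc1a2, the glutamate carrier GLT-1, was 6.24-fold lower in WT and 3.49-fold lower in CypD-/- mice. Slc16a10, which carries aromatic amino acids, was 5.24-fold lower in WT and 2.56-fold lower in CypD-/- mice. Slc3a1, the heavy chain of the cystine exchanger, was 4.50-fold lower in WT mice and 3.65-fold higher in CypD-/- + LPS than in WT + LPS mice, which places CypD-/- + LPS at 81.0% of untreated WT. Slc36a1, a proton-coupled carrier of small amino acids, was 3.92-fold lower and Slc43a3 2.75-fold higher, both in WT mice. Slc43a3 is counted here by its family, although it is known as a carrier of purine nucleobases.

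**Figure D2:**
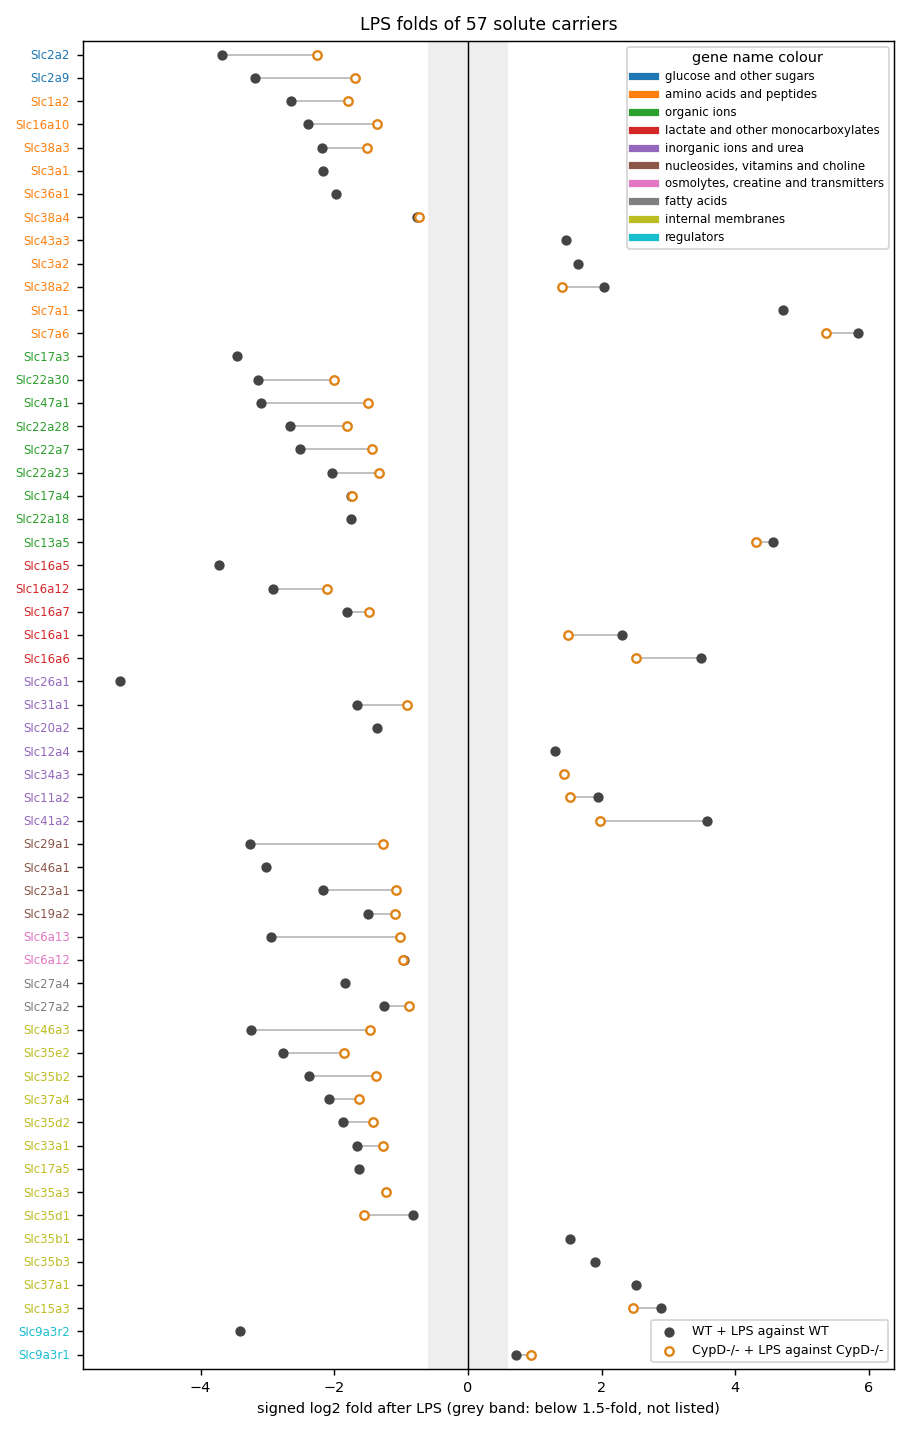
Signed log2 fold after LPS for 57 of the 59 members listed in at least 1 LPS comparison, in WT mice (filled) and CypD-/- mice (open), with a line joining members listed in both and gene names coloured by class. The open points lie nearer to 0 than the filled points for 34 of the 37 joined members, and Slc7a6 and Slc13a5 are the joined members farthest to the right.

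Of 12 organic ion carriers, 9 were lower and 1 higher after LPS in WT mice, and 7 were lower and 1 higher in CypD-/- mice, where 62.1% and 32.1% of all listed genes were lower. Slc22a26 and Slc22a27 had no value in either LPS comparison. The carrier that was higher was Slc13a5 (chr11:72241989-72267222 of GRCm38, minus strand), the sodium-coupled citrate carrier NaCT, which was 23.7-fold higher in WT and 19.8-fold higher in CypD-/- mice. Slc17a3, a urate and organic anion carrier, was 10.9-fold lower in WT mice and not listed in CypD-/- mice. Slc47a1, the proton-coupled exporter MATE1 that extrudes organic cations into bile, was 8.59-fold lower in WT and 2.82-fold lower in CypD-/- mice.

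Among the organic anion carriers, Slc22a7, which encodes OAT2, was 5.72-fold lower in WT and 2.71-fold lower in CypD-/- mice. Slc22a30 was 8.83-fold lower in WT and 4.0-fold lower in CypD-/- mice, with levels of 11.3% in WT + LPS, 125% in CypD-/- and 31.2% in CypD-/- + LPS mice relative to WT. Slc22a28 was 6.30-fold lower in WT and 3.52-fold lower in CypD-/- mice. The longest transcripts of this pair were 98.9% identical, so their values may not be separate measurements. Slc17a4 was 3.35-fold lower in WT and 3.31-fold lower in CypD-/- mice, and Slc22a23 was 4.09-fold lower in WT and 2.51-fold lower in CypD-/- mice. Slc22a18 was 3.35-fold lower in WT mice. Of all 62 members, 41 were lower after LPS in WT mice and 31 in CypD-/- mice. Without 5 members taken as sex-predominant these counts were 38 and 28. The part of the sex-linked difference between the libraries in these falls was not tested. A chosen list of 4 uptake carriers of the related Slco family, which the symbol rule does not take, was lower too. All 4 fell after LPS, by 5.23- to 14.6-fold in WT mice and by 2.67- to 5.31-fold in CypD-/- mice. Of all listed genes, 62.1% were lower in WT and 32.1% in CypD-/- mice. This list shares a gene with the male-predominant list above.

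The largest differences between untreated genotypes were in this class. Slc22a26 was 34.3-fold lower in the CypD-/- than in the WT library and 26.4-fold lower in CypD-/- + LPS than in WT + LPS mice, and it was not listed after LPS in either genotype. Slc22a27 was 7.59-fold lower in the CypD-/- than in the WT library and not listed elsewhere. Both are known as female-predominant in mouse liver, and 9 of 10 female-predominant genes moved the same way, by 8.69- to 68.1-fold. Genotype and the sex-linked difference between these libraries cannot be told apart.

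Monocarboxylate carriers of the Slc16 family divided by gene. Slc16a1 (chr3:104638668-104658462 of GRCm38, plus strand), which encodes MCT1, the proton-coupled lactate carrier, was 4.95-fold higher after LPS in WT and 2.83-fold higher in CypD-/- mice, and 1.54-fold lower in CypD-/- + LPS than in WT + LPS mice. Its levels relative to WT were 495% in WT + LPS, 114% in CypD-/- and 323% in CypD-/- + LPS mice. Slc16a6, a carrier of ketone bodies out of hepatocytes in zebrafish, was 11.2-fold higher in WT and 5.69-fold higher in CypD-/- mice. Of the 6 listed members, 2 were higher and 4 lower in WT mice, against 29.2% and 62.1% of all listed genes. Among those that were lower, Slc16a7, the high-affinity lactate and pyruvate carrier MCT2, was 3.51-fold lower in WT and 2.79-fold lower in CypD-/- mice. Slc16a12, a creatine carrier, was 7.57-fold lower in WT and 4.32-fold lower in CypD-/- mice. Slc16a5, or MCT6, was 13.3-fold lower in WT mice. Bsg, the chaperone that brings MCT1 to the cell surface, was 2.19-fold lower after LPS in WT mice, opposite to Slc16a1, and 1.90-fold higher in CypD-/- + LPS than in WT + LPS mice.

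Inorganic ion carriers were split between rises and falls. Of the 8 listed, 3 were lower and 3 higher after LPS in WT mice, against 62.1% and 29.2% of all listed genes. In CypD-/- mice 1 was lower and 3 higher, against 32.1% and 14.4% of all listed genes. Slc26a1 (chr5:108669878-108675569 of GRCm38, minus strand), the sulfate and oxalate exchanger SAT1, had the largest fall of all members, 37.1-fold in WT mice, and was not listed in CypD-/- mice. Slc41a2 (chr10:83230848-83337882 of GRCm38, minus strand), a magnesium carrier, was 12.0-fold higher in WT and 3.94-fold higher in CypD-/- mice. Its levels were 1196% in WT + LPS, 145% in CypD-/- and 572% in CypD-/- + LPS mice relative to WT. Slc11a2, the ferrous iron carrier DMT1, was 3.84-fold higher in WT and 2.89-fold higher in CypD-/- mice. Slc31a1, the copper importer CTR1, was 3.17-fold lower in WT and 1.89-fold lower in CypD-/- mice, with levels of 31.5% in WT + LPS, 114% in CypD-/- and 60.1% in CypD-/- + LPS mice. Slc11a2 and Slc31a1 thus went in opposite directions in both genotypes. Slc20a2, a phosphate carrier, was 2.57-fold lower and Slc12a4, a potassium chloride cotransporter, 2.46-fold higher, both in WT mice. Slc34a3, a sodium phosphate cotransporter, was 2.71-fold higher in CypD-/- mice, and Slc4a4, a sodium bicarbonate cotransporter, was 2.24-fold lower in CypD-/- + LPS than in WT + LPS mice. Atp1b1, a subunit of the sodium pump that maintains the gradient many carriers use, was 2.29-fold lower in CypD-/- mice after LPS.

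All 4 listed nucleoside and vitamin carriers were lower after LPS in WT mice and 3 in CypD-/- mice, where Slc46a1 was not listed. Of all listed genes, 62.1% were lower in WT and 32.1% in CypD-/- mice. Slc29a1 (chr17:45585200-45599606 of GRCm38, minus strand), the equilibrative nucleoside transporter ENT1, was 9.57-fold lower in WT and 2.42-fold lower in CypD-/- mice, with levels of 10.5% in WT + LPS, 94.6% in CypD-/- and 39.2% in CypD-/- + LPS mice. Slc46a1, the proton-coupled folate transporter, was 8.16-fold lower in WT mice and 4.19-fold higher in CypD-/- + LPS than in WT + LPS mice, which places CypD-/- + LPS at 51.3% of WT. Slc23a1, the vitamin C carrier SVCT1, was 4.52-fold lower in WT and 2.12-fold lower in CypD-/- mice. Its level in CypD-/- + LPS mice was 98.1% of untreated WT, against 22.1% in WT + LPS mice, while the folds imply 208% in untreated CypD-/- mice, a comparison in which Slc23a1 was not listed. Slc19a2, a thiamine carrier, was 2.83-fold lower in WT and 2.13-fold lower in CypD-/- mice.

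Of the osmolyte carriers, Slc6a13, the GABA and taurine carrier GAT2, was 7.70-fold lower in WT and 2.02-fold lower in CypD-/- mice, with levels of 13.0% in WT + LPS, 93.6% in CypD-/- and 46.2% in CypD-/- + LPS mice. Slc6a12, the betaine carrier BGT1, had nearly equal falls of 1.95-fold in both genotypes. The fatty acid transport proteins Slc27a2 and Slc27a4 were lower after LPS in WT mice, by 2.40-fold and 3.59-fold, and Slc27a2 was 1.85-fold lower in CypD-/- mice.

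**Figure D3:**
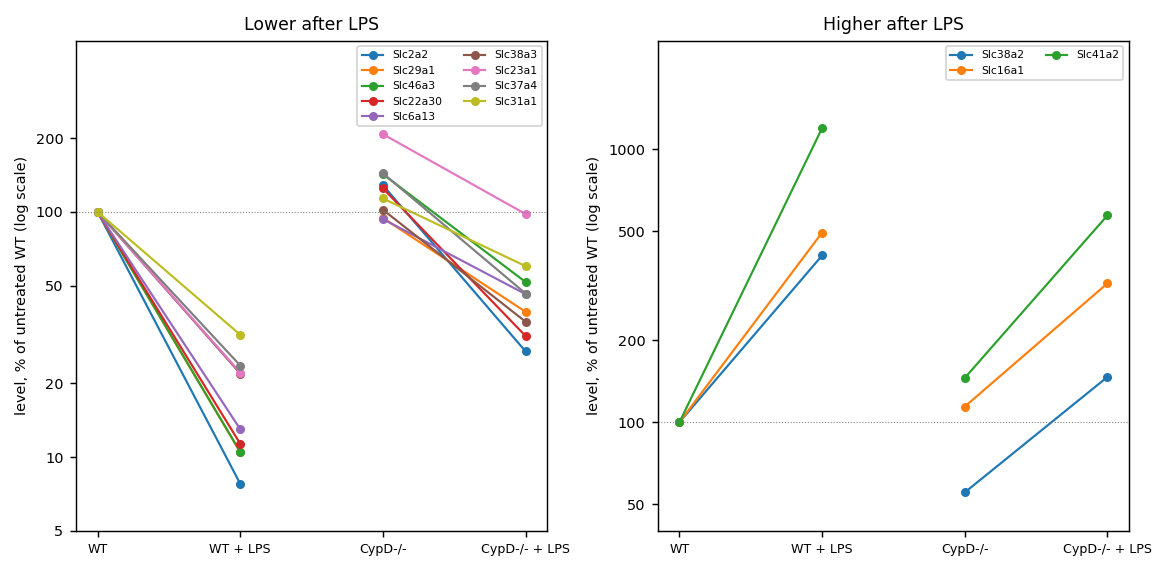
Levels of 12 members with folds in at least 3 tables, as a percentage of untreated WT mice on a log axis, derived from products of the listed folds; each line joins the untreated and the LPS-treated library of 1 genotype. For the 9 members in the left panel the WT + LPS library is the lowest of the 4, and for the 3 in the right panel it is the highest. All 12 were listed in both LPS comparisons and between the LPS-treated groups. The place of the WT + LPS library follows from the signs of those folds and is not a separate result.

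Of the 13 carriers of internal membranes, 8 were lower after LPS in each genotype, while 4 were higher in WT and 1 in CypD-/- mice. Of all listed genes 62.1% were lower in WT mice, a share close to that of this class, and 32.1% in CypD-/- mice. Slc46a3, a lysosomal carrier, was 9.54-fold lower in WT and 2.75-fold lower in CypD-/- mice, with levels of 10.5% in WT + LPS, 143% in CypD-/- and 51.8% in CypD-/- + LPS mice. Slc35b2, which brings the sulfate donor PAPS into the Golgi, was 5.18-fold lower in WT and 2.60-fold lower in CypD-/- mice, whereas Slc35b3, a carrier of the same donor, was 3.72-fold higher in WT mice. The orphan carrier Slc35e2 was 6.84-fold lower in WT and 3.61-fold lower in CypD-/- mice. Slc35d1, which carries UDP-glucuronic acid into the endoplasmic reticulum, had the larger fall in CypD-/- mice, 2.95-fold against 1.78-fold. Slc35d2, Slc33a1 and Slc17a5 fell by 3.64-, 3.17- and 3.08-fold in WT mice, and the first pair by 2.68- and 2.42-fold in CypD-/- mice. Slc35a3 was 2.34-fold lower in CypD-/- mice, and 5.47% of its 75-base windows occurred in another gene.

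Rises among internal carriers were fewer. Slc15a3, a lysosomal peptide and histidine carrier of immune cells, was 7.39-fold higher in WT and 5.53-fold higher in CypD-/- mice, in libraries in which 3 of 6 neutrophil markers rose. Of 7 macrophage and monocyte markers, 3 were lower and none higher in WT mice, whereas in CypD-/- mice 1 was lower and 3 rose. The part of these markers in the Slc15a3 values was not tested. Slc37a1, a glucose-6-phosphate carrier of the endoplasmic reticulum, was 5.69-fold higher and Slc35b1, an exchanger of ATP and ADP there, 2.88-fold higher in WT mice. Slc35b1 was also the only member higher in CypD-/- than in WT mice without LPS, by 1.70-fold. Of the scaffold genes, Slc9a3r2 was 10.6-fold lower in WT mice, and Slc9a3r1 was 1.64-fold higher in WT and 1.92-fold higher in CypD-/- mice. Pdzk1, another scaffold of carriers, was 5.43-fold lower in WT and 2.40-fold lower in CypD-/- mice.

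The WT and CypD-/- responses were read from separate pairs of libraries, so their members can be set side by side. Of the 16 members that rose in WT mice, 9 (56.3%) also rose in CypD-/- mice, and these were 90.0% of those that rose in CypD-/- mice. Of the 41 that fell in WT mice, 30 (73.2%) also fell in CypD-/- mice, or 96.8% of the CypD-/- list. For all genes these shares were 39.8% and 80.8% for rises and 45.8% and 88.7% for falls. No member was listed in opposite directions. The fold was smaller in CypD-/- mice for 36 of these 39 members (92.3%), and for 1050 of 1241 genes overall (84.6%). The exceptions were Slc35d1, Slc6a12 and Slc9a3r1. The WT fold was larger by a median of 1.66 times for members and 1.59 times for all genes, so the smaller folds were not particular to carriers. In WT mice 3 of 4 Y-linked, 7 of 7 male-predominant and 8 of 10 female-predominant genes fell after LPS. In CypD-/- mice 5 male-predominant genes fell, and no Y-linked or female-predominant gene was listed. The members that rose went the other way from these lists. The part of these lists in the member folds was not tested.

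**Figure D4:**
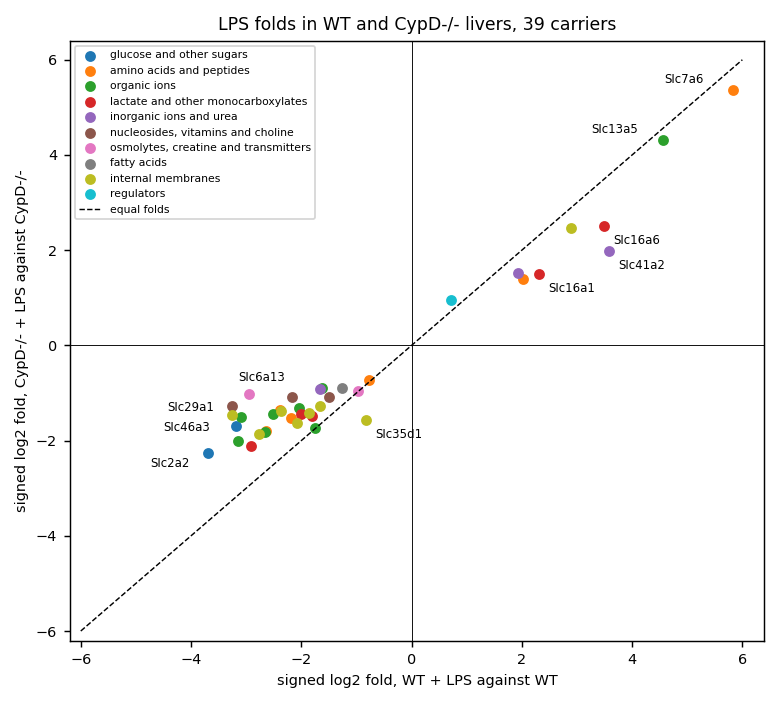
Signed log2 fold after LPS in CypD-/- mice (vertical) against WT mice (horizontal) for the 39 members listed in both, coloured by class, with the dashed line for equal folds. All points lie in the quadrants of equal sign, 9 for rises and 30 for falls, and 36 lie nearer to 0 on the vertical than on the horizontal axis.

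Between the LPS-treated groups 12 members were higher in CypD-/- + LPS than in WT + LPS mice (19.4%) and 6 were lower (9.68%), against 19.1% and 11.8% of all listed genes. The medians were 3.52-fold for the higher members, against 2.71-fold for all genes, and 2.17-fold for the lower members, against 2.14-fold. The higher members included Slc46a3 (4.94-fold), Slc23a1 (4.44-fold), Slc46a1 (4.19-fold), Slc29a1 (3.75-fold), Slc3a1 (3.65-fold), Slc6a13 (3.56-fold), Slc2a2 (3.47-fold), Slc22a30 (2.76-fold), Slc37a4 (1.97-fold), Slc31a1 (1.91-fold) and Slc38a3 (1.63-fold). All 12 had been lower after LPS in WT mice, a comparison that uses the same WT + LPS library. The lower members were Slc22a26 (26.4-fold), Slc38a2 (2.79-fold), Slc4a4 (2.24-fold), Slc41a2 (2.09-fold), Slc3a2 (2.02-fold) and Slc16a1 (1.54-fold). Hepatocyte markers moved with the higher group, with 3 of 6 higher by 1.80- to 1.99-fold, and so did all 7 male-predominant genes, by 4.72- to 29.1-fold. Of the female-predominant genes 6 of 10 were lower, by 3.19- to 79.7-fold, as was Slc22a26. The part of these marker genes in the member values was not tested.

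Without LPS few members differed between genotypes. Slc35b1 was higher (1.61% of members, against 2.79% of all listed genes), and Slc22a26, Slc22a27 and Slc38a2 were lower (4.84%, against 5.08%). The remaining 58 members had no listed value between untreated WT and CypD-/- mice.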

How the data were processed

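Liver RNA of WT, WT + LPS, CypD-/- and CypD-/- + LPS mice was measured in 1 pooled library per group. The authors depleted ribosomal RNA, sequenced by SOLiD chemistry and aligned 75-nt reads with strand to GRCm38 in CLC Genomics Workbench (minimum length 50%, similarity 80%, up to 10 match positions). The normalization between libraries is not given in the sources used here.

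Each of the 4 deposited tables holds 1 signed score per gene, the fold that the authors computed between a pair of libraries, and its q-value, which the authors derived from Kal's Z-test. Genes below 1.5-fold or above a q-value of 0.05 are not in these tables. Because the tables hold these comparisons and no values per library, the authors' folds were used as deposited. The tables hold no counts, so no depth, interval or test could be computed.

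Symbols were matched without regard to letter case. Carriers were sorted into classes by family, with single genes moved where their place or substrate is known. Levels relative to WT are products of folds, given where at least 3 tables list the gene. For Slc38a2 both ways around the 4 tables closed within 0.0003 (log2). The 4 folds are ratios between the same 4 libraries, so this closure is arithmetic and no check of their accuracy. For Slc3a1 and Slc46a1 the levels rest on 2 tables. Sharing of 75-base windows was computed over GENCODE M21 transcripts, and identity with Biopython 1.88. Of 70 promoter windows, 37 had their 50 bases after the start in a GENCODE transcript of the gene on the same strand. The counting functions were tested on simulated data. Members, gene lists and classes were chosen with earlier results of these data known. The rule for named genes took all members of the glucose and lactate classes, the 4 largest folds in each LPS comparison of every other class, and members listed without LPS or in at least 3 tables. Beyond that rule, other members were named after their values were seen. Some genes are counted but not reported here by name. Alternatives were a 2-fold threshold, letter case, a margin of 1.2-fold, each direction alone, and leaving out internal carriers, sex-predominant members or, added after seeing the data, members with shared windows. Python 3.11.15, pandas 2.3.3 and numpy 2.4.6 were used.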

Additional observations from a re-analysis of the deposited data

How the results depend on the processing

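No paired analysis was possible because each group is 1 library with no replicate number. The counts of members higher or lower after LPS, and between the LPS-treated groups, stayed within 1.5 times at a 2-fold threshold, with letter case kept, without 17 internal carriers, scaffolds and Slc27 genes, without 5 members taken as sex-predominant and without 8 members with shared 75-base windows, the last an alternative chosen after seeing the data. Without LPS the counts are small. The 1 member that was higher, Slc35b1, became 0 at a 2-fold threshold and 0 without internal carriers, scaffolds and Slc27 genes. The 3 that were lower became 1 without sex-predominant members and 1 without members with shared windows. Among members that rose, 9 were listed in both genotypes and 8 (88.9%) had the smaller fold in CypD-/- mice, against 246 of 356 genes overall (69.1%). Among members that fell, 28 of 30 (93.3%) had the smaller fold, against 804 of 885 genes overall (90.9%). Of 45 class counts above 0, 32 stayed within 1.5 times at a 2-fold threshold. With 1 pooled library per group and no counts, the precision of every fold is unknown.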
